A study of Saccharomyces cerevisiae with 76 samples.

Results

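The mitochondrial ribosomal protein genes of Saccharomyces cerevisiae are nuclear genes whose products are imported into mitochondria, and they were examined here for binding of the general regulatory factor Abf1. Members were the nuclear protein-coding genes whose symbol is MRPL, MRPS, MRP or RSM followed by a number, without MRP8, which gave 66 genes of 6002 nuclear open reading frames (ORFs) in the R64 annotation. The annotation calls 38 of them proteins of the large subunit of the mitochondrial ribosome and 27 proteins of the small subunit. The remaining member, RSM22, is annotated as a tRNA methyltransferase, against the label of the group, and was kept because the rule takes it. The members lie on 14 chromosomes.

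The mitochondrial ribosome translates the few messenger RNAs encoded in mitochondrial DNA, most of which specify membrane subunits of the respiratory chain. In yeast nearly all of its proteins are encoded in the nucleus, made in the cytosol and imported. Abf1 is an essential DNA-binding protein that binds a bipartite sequence in many promoters and helps to keep the region upstream of a gene free of nucleosomes.

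The series holds 76 samples in 26 groups, immunoprecipitations and inputs of a tagged and an untagged strain over a time course of Abf1 depletion. The binding values used here came from 3 immunoprecipitations at t = 0 and their 3 inputs, which were pooled before peaks were called. These cells were BY4742, MATalpha, with tor1-1, a deletion of FPR1 (fpr1del) and RPL13A-FKBP12-NAT, and their Abf1 gene was Abf1-FRB-yEGFP-3V5-hphMX4. They had received DMSO for 90 min in place of rapamycin, so that Abf1 was not depleted, and chromatin was precipitated with an antibody against V5. The untagged strain shares every allele but the tag on Abf1 and did not enter the peak list. All values are therefore of the tagged protein in 1 genetic background. With the replicates pooled, no value has a spread between replicates, and no difference between genes could be tested.

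A peak summit is the position of highest fragment coverage in a peak. A summit was taken as a member's when it lay inside the ORF or at most 1000 bp upstream of the start codon. Fold enrichment is the number of fragments over the summit divided by the background expected from the input, each with 1 added. The peak list keeps summits with a fold enrichment of at least 2, so that a member without a summit may still be bound below that level. Across the genome the list holds 948 summits, of which 231 lie inside tRNA genes.

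Abf1 recognises a TC pair and an ACG triplet held at a fixed distance. The motif sequences near the summits of the members are printed first because later paragraphs refer to them. Each is the best motif within 100 bp of the summit, from position -10 to 10 around the motif's midpoint, 5′ to 3′ on the motif's strand, from the sacCer3 (R64) sequence. Capitals mark the TC at -5 and -4, the ACG at 4 to 6, and the base at -8. The study gives that base as one on which formaldehyde cross-linking of Abf1 depends, with guanine or cytosine as the favourable bases. The summits of highest fold enrichment come first.
MRPS18 (chrXIV:57816-57836, plus strand): aaCtgTCattacatACGaact
MRPL16 (chrII:146007-146027, plus strand): ttGaaTCactaattACGaaag
RSM19 and MRPS12 (chrXIV:695448-695468, minus strand): ttGgaTCactattcACGgtta
MRPL8 (chrX:316594-316614, minus strand): gtCtgTCaccgcgtACGaggc
MRP4 (chrVIII:98303-98323, plus strand): ttCtaTCgtcttctACGatat
MRPS9 (chrII:535079-535099, minus strand): atAtaTCattttatACGtaaa
MRP7 (chrXIV:622770-622790, minus strand): gaGagTCatttgaaACGaccc
MRPS16 (chrXVI:529473-529493, minus strand): atCtaTCattcaggACGgaaa
MRPL4 (chrXII:1014330-1014350, plus strand): acCtaTCacacagcACGgata
MRP20 (chrIV:1277448-1277468, plus strand): gaAgaTCacttaatACGtaat
MRP49 (chrXI:134235-134255, plus strand): ctAgaTCactttgaACGtccc
MRPL28 (chrIV:1385900-1385920, minus strand): gaTagTCactgtatACGtaat
MRPL27 (chrII:768096-768116, plus strand): taTtaTCacgtttcACGgatt
RSM27 (chrVII:922019-922039, minus strand): ttAgaTCactatatACGctac

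Abf1 summits were found at 18 of the 66 members. They were MRPS18, MRPL16, RSM19, MRPS12, MRPL8, MRP4, MRPS9, MRP7, MRPS16, MRPL4 and MRP20 at a fold enrichment of 4 or more, the minimum that the study used for strong binding, and RSM26, MRPL10, MRPS35, MRP49, MRPL28, MRPL27 and RSM27 below it. The share with a summit was 27.3% of members (95% Wilson interval 18.0 to 39.0%), beside 19.4% of all nuclear ORFs. The background lies within the members' interval, so that no difference from it is claimed. With summits inside ORFs left out, or with a reach of 250 bp, the background fell just below the interval, at 17.8% of ORFs beside 18 members (18.0 to 39.0%) and at 9.06% beside 11 members (9.57 to 27.4%). At a fold enrichment of 4 or more the share was 16.7% of members (11 genes, 9.57 to 27.4%) beside 9.88% of ORFs. At 10 or more it was 10.6% (7 genes, 5.23 to 20.3%) beside 5.51% of ORFs. The background stood inside the interval at both levels too. These intervals cover counting error over genes only, and genes that share a summit are not independent.

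**Figure D1:**
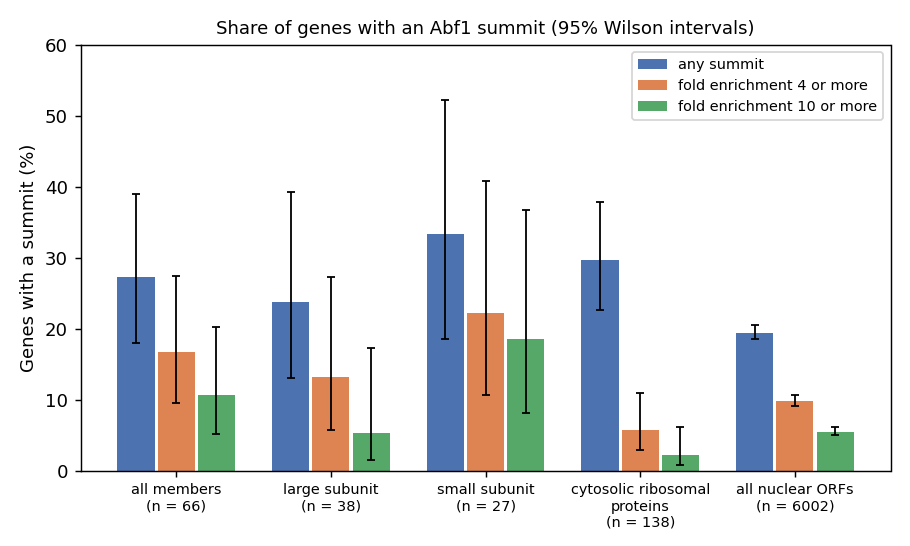
Percent of genes with an Abf1 summit inside the ORF or up to 1000 bp upstream, for all members, the members of each subunit, the cytosolic ribosomal protein genes and all nuclear ORFs. Bars give the share at any fold enrichment, at 4 or more and at 10 or more, with 95% Wilson intervals. For all members the shares were 27.3, 16.7 and 10.6%, and each of their intervals includes the share of all ORFs. The share of all ORFs lies below the small subunit intervals at 4 or more and at 10 or more. Both of these small subunit shares include MRP4 and MRPS12, which do not border the gap of their summit. MRPS12 also has the same summit as RSM19, so that this summit is counted for both genes. It also lies below the cytosolic interval at any fold enrichment.

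Among members with a summit, the fold enrichment ran from 2.13 to 57.3, with a median of 5.96 (quartiles 2.80 and 26.5). The median of the highest summit was 4.15 over the 1167 ORFs with a summit (quartiles 2.81 and 12.3). Each of the 18 members had exactly 1 summit, and RSM19 and MRPS12 had the same one, which left 17 distinct summits. The members thus spanned most of the range of the list, from rank 5 (MRPS18) to rank 899 (RSM27) of 948. Counting error at a member's summit was at most 5.75% of the fragments, so that neighbours in the order such as MRPL16 and RSM19, or MRPL4 and MRP20, differed by no more than their counting error. The gap from MRPS18 to MRPL16 was far wider than it.

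**Figure D2:**
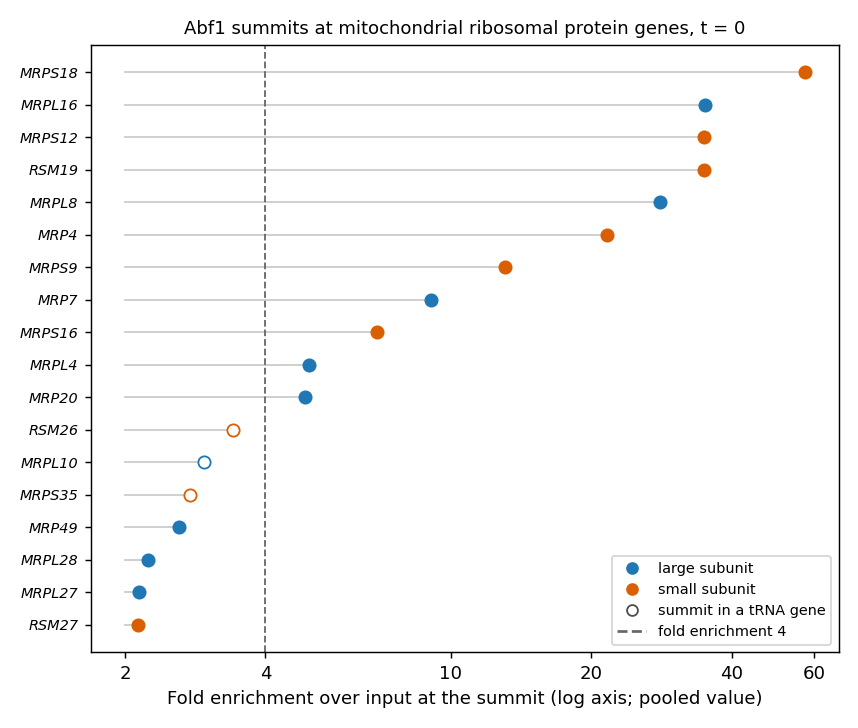
Fold enrichment over input at the summit of each of the 18 members with a summit, on a log axis, with colour for the subunit, open circles for summits inside tRNA genes and a dashed line at a fold enrichment of 4. The 18 pooled values run from 2.13 (RSM27) to 57.3 (MRPS18), and the 3 open circles all lie below the line.

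The small subunit binds the messenger RNA and decodes it, and 9 of its 27 members had a summit (33.3%, 18.6 to 52.2%). The share of all ORFs, 19.4%, lay inside that interval. MRPS18, the homologue of bacterial S11 and described in the annotation as essential for viability, had the highest summit of all members. Its summit held 7976 fragments over a background of 138, a fold enrichment of 57.3. It lay 279 bp upstream of the start codon at 57876 on chromosome XIV, in a gap of 581 bp shared with the divergent gene MCK1, which encodes a protein kinase and starts 303 bp away.

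RSM19 and MRPS12 stand in a row on chromosome XIV and encode the homologues of bacterial S19 and S12. A single summit at 695459 had 4637 fragments over 132, a fold enrichment of 34.8. It was 132 bp upstream of RSM19 and 637 bp upstream of MRPS12, with the whole RSM19 ORF between it and MRPS12. The gap also borders DBP6, which encodes a putative RNA helicase of cytosolic ribosome assembly and starts 136 bp from the summit on the other side. The value cannot be divided among these genes.

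MRP4 encodes the homologue of bacterial S2. The summit assigned to it, at 98317 on chromosome VIII, had 3082 fragments over 142, a fold enrichment of 21.6, and lay 902 bp from its start codon. That summit sits in the gap between STE20, which encodes a p21-activated kinase, and SHU1, and the SHU1 ORF separates it from MRP4. Of the members whose summit lay in a gap between ORFs, MRP4 and MRPS12 were the 2 that did not border that gap.

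MRPS9 (homologue of bacterial S9) and MRPS16 (homologue of bacterial S16) completed the small subunit genes with a fold enrichment of 4 or more. MRPS9 had 1824 fragments over 139, a fold enrichment of 13.0, 160 bp upstream of its start codon at 535100 on chromosome II, in a gap behind the tandem gene ADH5. No other ORF was reached by that summit. MRPS16 had 1007 fragments over 144, a fold enrichment of 6.95, at 138 bp, in a gap shared with RRP12, whose product acts in the export of ribosomal subunits from the nucleus and which starts 235 bp away. The remaining small subunit members with a summit were RSM26 (3.41), MRPS35 (2.75) and RSM27 (2.13).

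The large subunit holds the peptidyl transferase centre, and 9 of its 38 members had a summit (23.7%, 13.0 to 39.2%). The 19.4% of all ORFs lay inside that interval too. MRPL16, the homologue of bacterial L16, came highest. Its summit at 146018 on chromosome II had 4841 fragments over 137, a fold enrichment of 35.1, and lay 169 bp upstream of the start codon. URA7, the major CTP synthase gene, starts 290 bp from the same summit on the other strand.

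MRPL8, the homologue of bacterial L17, had 3662 fragments over 130, a fold enrichment of 28.1, at 132 bp from its start codon. The gap of 247 bp was the narrowest that held a member's summit, and COA3, a gene for cytochrome c oxidase assembly, starts 116 bp away on its other side. Both genes flanking this summit thus encode mitochondrial proteins.

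MRP7, MRPL4 and MRP20 had lower values. MRP7, the homologue of bacterial L27, had 1468 fragments over 161, a fold enrichment of 9.07, at 349 bp, while HRB1, a gene for a poly(A) RNA-binding protein, started 138 bp from the summit. MRPL4, the homologue of bacterial L29, which sits near the exit of the peptide tunnel, had 667 fragments over 133, a fold enrichment of 4.97, at 152 bp, opposite LSM3 at 161 bp. MRP20, the homologue of bacterial L23, had 653 fragments over 134, a fold enrichment of 4.86, at 190 bp, opposite the RNA polymerase II subunit gene RPB7 at 287 bp. MRPL4 and MRP20 were the members just above the line of 4, and RSM26 at 3.41 was the first below it.

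MRPL10 (2.95), MRP49 (2.61), MRPL28 (2.24) and MRPL27 (2.14) were the large subunit members under 4. The MRPL28 summit lay in the same peak interval as a summit of fold enrichment 28.3 located 722 bp away, towards the transcription factor gene STP1. MRP20 also shared its interval with another summit, of fold enrichment 4.94 and 926 bp away. The part of fragments from the neighbouring summit in these values was not tested.

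The median fold enrichment was 13.0 over the 9 small subunit members with a summit and 4.86 over the 9 of the large subunit. At 10 or more there were 5 small subunit genes (18.5%, 8.18 to 36.7%) and 2 large subunit genes (5.26%, 1.46 to 17.3%), and these intervals overlap. The share of all ORFs, 5.51%, lay below the small subunit interval and inside the large subunit one. Without MRP4 and MRPS12, which do not border the gap of their summit, the small subunit median was 6.95 and the counts were 3 and 2. This setting was chosen after seeing the data, and it also leaves the summit shared by RSM19 and MRPS12 counted only once. No difference between the subunits was tested.

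Summits of the members lay within 400 bp of the start codon in most cases. None lay inside a member's ORF, against 11.3% of all pairs of an ORF and a summit. The distance was 100 to 400 bp in 15 of 18 members (83.3%), against 58.4% of the 1124 upstream pairs of all ORFs, and its median was 170 bp against 343 bp. MRP49, at 106 bp, was the nearest, and MRPL10 (755 bp) and MRP4 (902 bp) were the farthest inside the reach of 1000 bp. Just outside it were RSM22 (1171 bp, fold enrichment 3.09, in a tRNA gene), RSM7 (1539 bp, 19.5) and MRP21 (1560 bp, 11.1), which count as members without a summit.

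**Figure D3:**
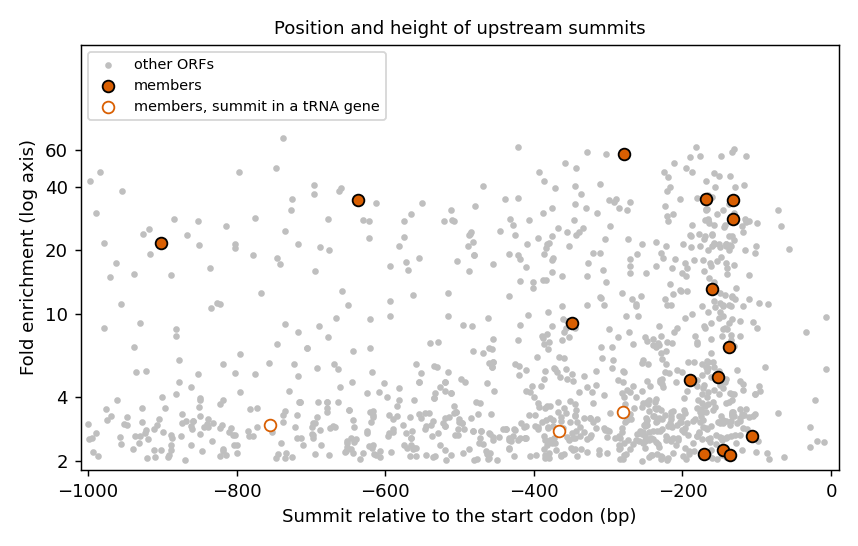
Fold enrichment at the summit on a log axis against the position of the summit relative to the start codon in bp, for pairs of a summit and an ORF with the summit upstream; filled orange points are members, open points members whose summit lies in a tRNA gene, and grey points other ORFs. Of 18 members, 15 lie between 100 and 400 bp upstream, and the exceptions are MRPS12 (637 bp), MRPL10 (755 bp) and MRP4 (902 bp).

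Of the 17 member summits, 11 lay in divergent gaps (64.7%), beside 44.5% of the 735 other summits upstream of an ORF. A further 5 were in tandem gaps, and 1 lay inside YGR164W, upstream of MRPS35. In all, 14 of the 17 reached at least 1 other ORF by the same rule (82.4%), beside 49.4% of the other summits upstream of an ORF. A summit that reaches more ORFs has more chances to be taken as a member's. The rule itself thus raises this share and the divergent share, and neither is read as a trait of the members. The 3 that reached no other ORF were those of MRPS9, MRPL10 and RSM27. Which of the genes a shared summit bears on cannot be told apart from a peak list.

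Summits inside tRNA genes accounted for 3 members. RSM26, whose product is a small subunit protein, had its summit in a tRNA-Leu gene, MRPL10 (homologue of bacterial L15) in a tRNA-Thr gene, and MRPS35 (small subunit) in a tRNA-Arg gene. The RSM26 summit, at 617954 on chromosome X, had 564 fragments over 165 and lay 280 bp from RSM26 and 620 bp from AIM25. The MRPL10 summit, at 104857 on chromosome XIV, had 411 fragments over 139 and lay 755 bp away, in a gap that WSC2 borders on the other side. The fold enrichments of 3.41 (RSM26), 2.95 (MRPL10) and 2.75 (MRPS35) stand near the median of 2.95 over the 231 summits in tRNA genes, none of which exceeded 9.79. Leaving such summits out gave 15 of 66 members (22.7%) beside 16.1% of ORFs, with a median of 9.07 for the members and 5.28 for the ORFs. The study describes weak apparent signal over ORFs and tRNA genes as a known artefact of chromatin immunoprecipitation. It states that its minimum for strong binding also filters such signal out. In this list, however, some summits in tRNA genes reach that minimum. Of the 411 summits at 4 or more that are not a member's, 391 lie outside tRNA genes. The summits of RSM26, MRPL10 and MRPS35 lie below the minimum. Whether these 3 signals come from Abf1 at a site of its own or from this artefact was not tested.

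All 14 member summits outside tRNA genes had an Abf1 motif within 100 bp, as did 88.1% of the 586 other summits upstream of an ORF and outside tRNA genes. A motif here is a match scoring at least 85% of what the matrix can span, the matrix being built from 393 sequences, none of them from a member's peak. The 3 summits in tRNA genes had none. In 12 of the 14 (85.7%), the best motif stood no more than 20 bp away, with a median offset of 4.5 bp, beside 77.1% and 10.5 bp for the 516 of those other summits that had a motif. MRPS18 (50 bp) and MRPL27 (37 bp) were the members farther away. The midpoints at MRPL16, RSM19 and MRPL4 were 1 bp from the summit.

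At 7 of the 14 summits there were 2 or more motifs. Those at MRP4 overlap on opposite strands, with midpoints 4 and 2 bp from the summit, and are not separate sites. For the other summits upstream of an ORF and outside tRNA genes it was 106 of the 516 with a motif (20.5%). At MRPL16 and RSM19 the stretch around the summit is printed because it holds a second motif beside the one above, on the plus strand, with the same positions in capitals. On the RSM19 line both motifs are on the minus strand, so that the capitals read in reverse complement.
MRPL16 (chrII:145933-146068): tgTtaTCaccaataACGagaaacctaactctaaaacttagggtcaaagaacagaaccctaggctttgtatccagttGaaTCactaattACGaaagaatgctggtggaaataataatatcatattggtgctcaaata
RSM19 and MRPS12 (chrXIV:695383-695509): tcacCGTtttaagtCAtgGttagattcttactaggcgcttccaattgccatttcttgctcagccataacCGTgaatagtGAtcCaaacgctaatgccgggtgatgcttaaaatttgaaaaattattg

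At MRPL16 the second motif lay 75 bp from the summit, had thymine at -8 and matched the Abf1 consensus exactly. At RSM19 the second lay 66 bp away, and it was not an exact match. At MRP20 the second motif lay 17 bp from the summit with thymine at -8, beside the first with adenine there. MRPS18, MRPL8 and MRPL4 had a further exact match outside this window, 128, 291 and 435 bp upstream of the start codon, each with guanine or cytosine at -8. Within the window, the 14 summits held 21 distinct motifs, with the overlapping matches at MRP4 counted separately, and 18 matched the consensus exactly. The best motif lay on the strand of the gene for 11 of the 15 members.

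The base at -8 of the best motif was guanine or cytosine at 8 of the 14 member summits (57.1%) and adenine or thymine at 6. Of the other 516 summits with a motif, upstream of an ORF and outside tRNA genes, 41.7% had guanine or cytosine. The 8 had fold enrichments of 4.97 to 57.3 with a median of 24.8, and they were MRPS18, MRPL16, RSM19 with MRPS12, MRPL8, MRP4, MRP7, MRPS16 and MRPL4. The 6 had 2.13 to 13.0 with a median of 2.43, and they were MRPS9, MRP20, MRP49, MRPL28, MRPL27 and RSM27. The ranges overlap through MRPS9, which exceeded MRP7, MRPS16 and MRPL4 with adenine at -8. Over all 615 other summits with a motif the medians were 12.9 and 4.15 for the same classes, in the same order. Because the study ties this base to the efficiency of cross-linking, height in these data cannot be told apart from it. The study kept only peaks at which every motif found had guanine or cytosine there. With the motifs found here, 6 of the 14 member summits had only guanine or cytosine, 5 only adenine or thymine, and 3 both. MRPL16 and MRP4, among the 8 above, each hold a second motif with thymine or adenine at -8. The study reports that low signals at some sites without guanine or cytosine did not fall during depletion. It proposes rebinding of cytosolic Abf1 in the ChIP procedure as the likely source. Whether this holds for the 6 member summits with adenine or thymine at -8 of the best motif was not tested.

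**Figure D4:**
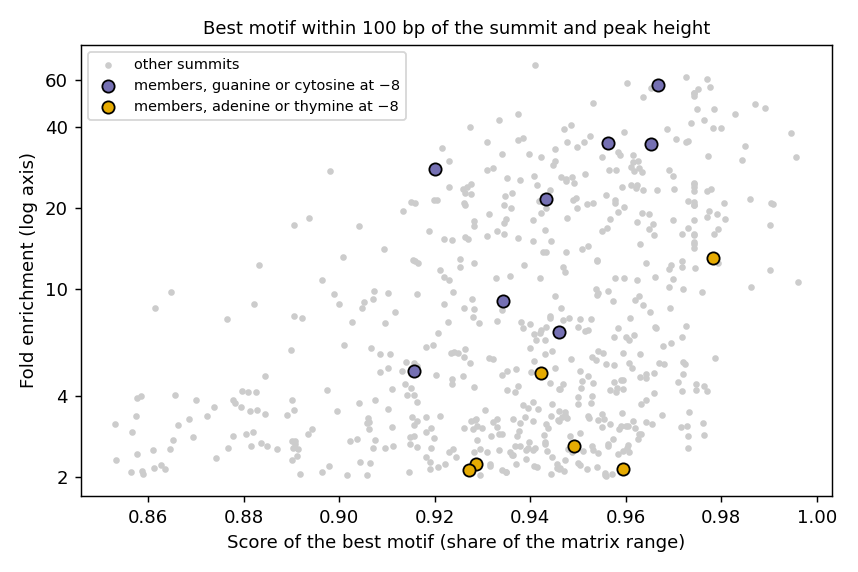
Fold enrichment at the summit on a log axis against the score of the best motif within 100 bp, on a scale where 1 is the highest score of the matrix, for summits with a motif; large points are the 14 member summits, coloured by the base at −8, and grey points the 615 other summits. Member summits with guanine or cytosine have a median of 24.8 and those with adenine or thymine a median of 2.43, with scores from 0.916 to 0.978.

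The score of the best motif varied little among the members. On a scale up to 1, MRPL4 had the lowest, 0.916, and MRPS9 the highest, 0.978, with MRPS18 at 0.967. Spearman's rho between score and fold enrichment was 0.40 over the 14 member summits and 0.39 over the 615 others, given as a description, since all summits come from the same libraries. Thymine at -1 was present in the best motif at 10 of the 14 (71.4%), beside 64.2% of the other summits with a motif.

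An exact match to the Abf1 consensus within 500 bp upstream of the start codon was present at 20 of 66 members (30.3%), against 18.1% of all nuclear ORFs. The consensus searched was the published Abf1 consensus, on both strands, with every fixed base required. Of the 20, 13 had a summit within 500 bp (65.0%), against 53.4% of all ORFs with a match. With guanine or cytosine at -8 of at least 1 match, 7 of 8 members had a summit (87.5%), against 83.5% of ORFs. With only adenine or thymine it was 6 of 12 members (50.0%), against 42.7%. These shares rest on few members, and no difference from all ORFs was tested.

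The 7 members with a consensus match but no summit were MRPL36, MRPL32, RSM24, MRPL39, MRPL44, MRP51 and MRPL51. Their matches are printed because they carry the full consensus without a called summit, with the same capitals as above. MRPL32 and MRPL39 each hold a second match on the opposite strand, with its midpoint 2 bp away.
MRPL44 (chrXIII:721501-721521, plus strand): taGaaTCgcgcaaaACGgttc
MRPL36 (chrII:484630-484650, plus strand): gaTaaTCgctctttACGgttt
MRPL32 (chrIII:118495-118515, plus strand): tcTcaTCgtatcatACGatta
RSM24 (chrIV:814292-814312, minus strand): ctTtaTCgcgttgcACGtcgg
MRPL39 (chrXIII:251637-251657, plus strand): acTggTCgtttgccACGacat
MRP51 (chrXVI:326437-326457, minus strand): aaAtaTCactgtcaACGtaaa
MRPL51 (chrXVI:729632-729652, plus strand): gtTtaTCgcactatACGttac

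MRPL44 alone among them has guanine at -8, with its match 108 bp upstream of the start codon, and the other 6 have only adenine or thymine. All 7 lay 108 to 181 bp upstream of the start codon. MRPL44 is also the 1 member with more than 1 coding exon. Since the list holds no value below its threshold, binding at these sites below a fold enrichment of 2 would not appear. In the other direction, RSM26 and MRPS35 were the 2 members with a summit within 500 bp and no consensus match, and both summits lie in tRNA genes.

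Members without a summit numbered 48. Of the large subunit they were MRP35, MRPL1, MRPL3, MRPL6, MRPL7, MRPL9, MRPL11, MRPL13, MRPL15, MRPL17, MRPL19, MRPL20, MRPL22, MRPL23, MRPL24, MRPL25, MRPL31, MRPL32, MRPL33, MRPL35, MRPL36, MRPL37, MRPL38, MRPL39, MRPL40, MRPL44, MRPL49, MRPL50 and MRPL51. Of the small subunit they were MRP1, MRP2, MRP10, MRP13, MRP17, MRP21, MRP51, MRPS5, MRPS8, MRPS17, MRPS28, RSM7, RSM10, RSM18, RSM23, RSM24, RSM25 and RSM28, and RSM22 was the remaining one.

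Other genes of mitochondrial translation were read from lists. Of 13 mitochondrial ribosomal proteins with names outside the rule, 4 had a summit (30.8%, 12.7 to 57.6%), beside 19.4% of all ORFs. MHR1 had the highest at 23.5. Of 12 mitochondrial translation factors 1 had a summit, PET112 at 8.53, and of 12 mitochondrial tRNA synthetases 1 had a summit, MSF1 at 11.2, the phenylalanyl enzyme. Each of these shares was 8.33% (1.49 to 35.4%), an interval that also includes 19.4%.

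The cytosolic ribosomal protein genes are a group known for binding by other general regulatory factors such as Rap1. They were taken by symbol alone (RPL, RPS or RPP followed by a digit), without regard to the annotated product. A summit was found at 41 of these 138 genes (29.7%, 22.7 to 37.8%). The share was 27.3% for the members and 19.4% for all ORFs, and the latter lies below the cytosolic interval. The median of their highest summits was 2.56 against 5.96 for the members. A fold enrichment of 4 was reached by 8 genes (5.80%), beside 11 of the 66 members (16.7%, 9.57 to 27.4%) and 9.88% of all ORFs. Whether their summits below 4 are the artefact over ORFs that the study describes was not tested. At 10 or more they were 3 genes (2.17%, beside 5.51% of all ORFs), RPS28B (56.4), RPS22B (31.1) and RPL43B (21.0). The consensus stood within 500 bp upstream of 13 of these 138 genes (9.42%), beside 30.3% of the members and 18.1% of all ORFs.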

How the data were processed

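Paired-end reads were mapped by the authors to sacCer3 (HISAT2 2.0.5), filtered by molecular identifier and for unique mapping, and used to call peaks with MACS2 2.1.1.20160309 on 3 immunoprecipitations together against 3 inputs, at a q-value of 0.001. The tool versions, with bedtools 2.27, are from the submitters' processing notes. The deposited fold enrichment is a ratio of pileup to background. The authors' −log10 p-value compares that pileup with a Poisson background. Neither the deposited score nor the q-value column was used. Library depths were not used here. Requiring unique mapping can lower signal in repeats.

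From the fold enrichment and the p-value, fragments at each summit were solved, to a whole number within 0.01 for 941 of 948. ORFs and tRNA genes came from the R64 annotation, which is sacCer3. The motif matrix had 15 positions and a pseudocount of 0.8, from consensus sites with at most 1 mismatch at peaks that reached 4. Members at 4 or more were named, the 12 highest summits in full, members below 4 by value, and listed genes at 10 or more. The members, lists and alternatives were chosen with earlier results of these data known. Distances and shares have no test, since peaks were called on pooled samples. Intervals are 95% Wilson intervals. The functions were tested on simulated data. The software was matplotlib 3.10.9, scipy 1.17.1, pandas 2.3.3 and numpy 2.4.6 under Python 3.11.15.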

Additional observations from a re-analysis of the deposited data

How the results depend on the processing

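Of 49 combinations of a result and an alternative, 39 stayed within 1.5 times the main count or the 95% interval of the main value, and 10 moved. With a reach of 250 bp, 11 members had a summit (16.7%) beside 9.06% of all ORFs; the 7 lost were MRP4, MRP7, MRPL10, MRPS12, MRPS18, MRPS35 and RSM26. A fold enrichment minimum of 4 also gave 11 members, beside 9.88% of ORFs. The share of all ORFs moved to 14.8% with a reach of 500 bp, 17.8% with ORFs left out, 13.3% with each summit given only to the nearest start codon, 16.1% without summits in tRNA genes and 24.2% with any overlap of the peak interval. Given only to the nearest start codon, summits remained at 13 members, without MRP4, MRP7, MRPL8, MRPS12 and MRPS35. The median fold enrichment of members, 5.96, was 9.07 without summits in tRNA genes (5.28 over all ORFs with a summit) and 21.6 with a minimum of 4 (11.9 over ORFs). Both of these medians are counted among the 39, so that this count does not show the median to be stable. The 14 motif summits stayed 14 at every motif setting run. The authors' fold enrichment minimum of 2 bounds the list, and the pooled list gives no spread between replicates. No paired analysis was possible because the peak list merges the replicates and no result comes from a test.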
